A study of Drosophila melanogaster with 10 samples.

Results

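The testis TAFs (tTAFs) of *Drosophila* are 5 proteins, encoded by *can*, *nht*, *mia*, *sa* and *Taf12L* (*rye*), and each is the male germline counterpart of a TAF found in all cells. The 5 tTAF genes and their general paralogs *Taf5*, *Taf4*, *Taf6*, *Taf8* and *Taf12* were taken by name, not by signal, as every probe set that the platform annotation pairs with exactly 1 of these genes. Earlier results of these data were known when the genes were chosen. This gave 10 genes with 12 probe sets, out of 11982 genes and 18769 probe sets. *Taf12L* and *Taf4* had 2 probe sets each and the other genes had 1.

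The series compared testes of wild-type males, strain *w1118*, with testes of males homozygous for the *tbrd-1* mutant allele, whose genotype is labelled tbrd-11/tbrd-11. *tbrd-1* encodes a double bromodomain protein of primary spermatocytes, and the array experiment asked whether it is needed for gene expression in the testis. Each genotype was measured on 5 Affymetrix Drosophila Genome 2.0 arrays, and each array held RNA of its own from the pooled testes of 25 males aged 0 to 2 days. A single allele was used, and no array of rescued or heterozygous males was analysed here. In whole testes, fewer cells of a type and less RNA per cell cannot be told apart.

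TFIID, the complex of the TATA-binding protein (TBP) and its associated factors (TAFs), binds core promoters and starts the assembly of RNA polymerase II there. Several TAFs pair through histone folds, TAF4 with TAF12 and TAF6 with TAF9 among them, TAF8 pairs with TAF10, and TAF5 carries WD40 repeats. Primary spermatocytes of the fly express the tTAFs in addition to the general TAFs, and spermatocytes that lack a tTAF arrest before the meiotic divisions and do not switch on many genes of spermatid differentiation.

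Values are RMA signal intensities on a linear scale, and the log2-fold change is mutant minus wild-type, so that a positive value means more signal in *tbrd-1* mutants. To be called up- or down-regulated a probe set needed a change of 2-fold or more (log2-fold change of 1 or more in size) and a limma p, adjusted over all 18769 probe sets by Benjamini-Hochberg, no higher than 0.05. SE stands for the standard error of the log2-fold change. Probes differ in how strongly they bind, so levels of different genes were not compared, only their changes. The check of the mutation came first. *tbrd-1* fell from 787 ± 140 (SD, n = 5) to 13.8 ± 2.28 (SD, n = 5), and no mutant array exceeded 16.

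The 5 tTAF genes went in different directions in *tbrd-1* mutants, while their general paralogs moved little. *mia* and *Taf12L* were up-regulated, *can* was down-regulated, *sa* rose by less than 2-fold and *nht* was level. By the call, 2 of 5 tTAF genes were up-regulated and 1 was down-regulated, where 1.18% of all probe sets were called higher, 2.36% lower and 3.54% either way. No general paralog was called. By the limma adjusted p without the fold minimum, 4 of 5 tTAF genes and 1 of 5 general paralogs passed, beside 36.2% of all probe sets. The mutant and wild-type arrays did not overlap for 4 of 5 tTAF genes and 1 of 5 general paralogs, beside 24.0% of all probe sets (10.3% with the mutant arrays below and 13.6% with them above). The median log2-fold change was 0.77 for the tTAF genes, 0.13 for the general paralogs and 0.07 for all probe sets, and the median of its absolute value was 1.11, 0.13 and 0.18. In wild-type the tTAF genes were brighter than 70.6% to 91.3% of all probe sets, and the general paralogs than 48.6% to 70%. The part of signal level in this contrast was not tested.

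**Figure D1:**
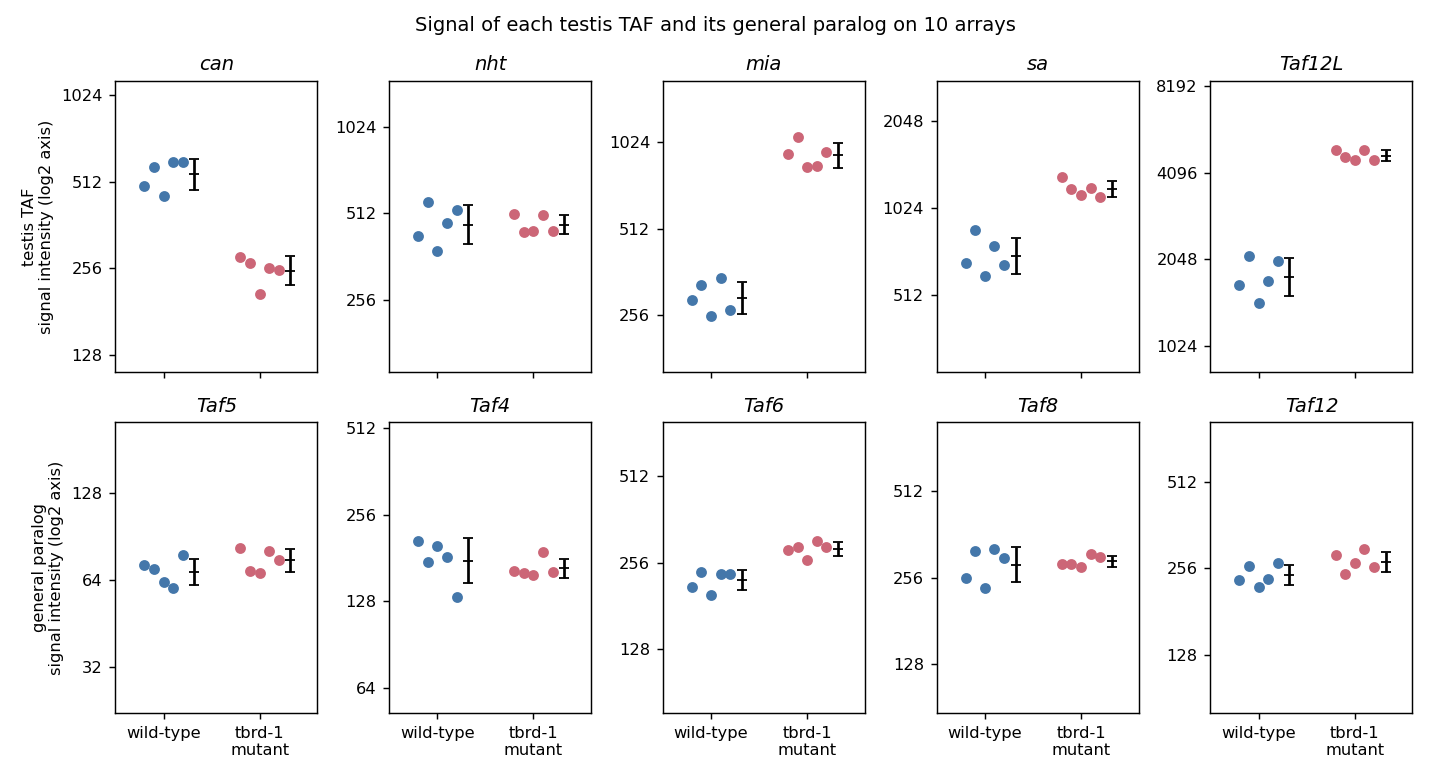
Signal intensity (log2 axis, each panel with its own limits and the same number of doublings) of the 5 testis TAF genes above and their general paralogs below, with 1 point per array and bars for the mean ± SD on the log2 scale, 5 arrays per genotype and the brightest probe set of each gene. The mutant arrays stand above all wild-type arrays for *mia*, *sa*, *Taf12L* and *Taf6*, below them for *can*, and overlap them for the other 5 genes.

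*can* (*cannonball*, CG6577, chromosome arm 3L) encodes the tTAF that corresponds to TAF5, with WD40 repeats. Its signal on wild-type replicates 1 to 5 was 493, 578, 457, 601 and 602, and on mutant replicates 1 to 5 it was 280, 267, 208, 257 and 253. The highest mutant array lay far under the lowest wild-type array. The mean fell from 546 ± 66.9 to 253 ± 27.2 (SD, n = 5 each), a 2.16-fold loss with a log2-fold change of -1.11 ± 0.10 (SE, limma adjusted p = 9.6e-06). Of all probe sets, 2.56% fell further. The change lay close to the fold minimum, and over all alternative settings it ranged from -1.22 to -1.0 without losing the call.

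*Taf5* (CG7704, 2R), its general paralog and a scaffold subunit of TFIID, measured 72, 70, 63, 60 and 78 on the wild-type arrays and 83, 69, 68, 81 and 75 on the mutant arrays. The genotypes overlapped, and the log2-fold change of 0.13 ± 0.09 (SE, limma adjusted p = 0.25) did not pass.

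*mia* (*meiosis I arrest*, CG10390, 3R) encodes the TAF6-type tTAF and gave the largest rise among the 10 genes. The wild-type arrays measured 290, 326, 254, 345 and 267 and the mutant arrays 933, 1067, 837, 842 and 946. The lowest mutant array was more than 2-fold above the highest wild-type array. The mean went from 296 ± 38.5 to 925 ± 93.9 (SD, n = 5 each), which is 3.13-fold, with a log2-fold change of 1.65 ± 0.10 (SE, limma adjusted p = 3.8e-07). Only 0.32% of all probe sets rose further.

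*Taf6* (CG32211, 3L) encodes the general histone-fold TAF of this pair, the partner of TAF9. It measured 210, 237, 198, 234 and 234 in wild-type and 282, 291, 261, 304 and 290 in mutants, so that every mutant array lay above every wild-type array. The rise was 1.28-fold, from 223 ± 17.5 to 286 ± 15.9 (SD, n = 5 each), with a log2-fold change of 0.36 ± 0.07 (SE, limma adjusted p = 0.0018). It was the single general paralog past the adjusted p, and it stayed under the fold minimum. Without the 5 of 10 arrays bright in *Ebp*, a gene of the ejaculatory bulb, it was 0.27 and no longer passed (limma adjusted p = 0.13, unadjusted 0.031). Whether the smaller number of arrays or the ejaculatory bulb signal made this difference was not tested. With each array centred on its median *Taf12* passed as well, at 0.26 (limma adjusted p = 0.041). The dimmer probe set of *Taf4* then also passed, at 0.34 (limma adjusted p = 0.025).

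*Taf12L* (*ryan express* or *rye*, CG15632, 2L) encodes the TAF12-type tTAF. Its brighter probe set measured 1669, 2106, 1441, 1723 and 2017 in wild-type and 4922, 4625, 4532, 4904 and 4519 in mutants. The genotypes were far apart, and the mutant arrays lay closer together than the wild-type arrays. The mean went from 1790 ± 270 to 4700 ± 198 (SD, n = 5 each), or 2.65-fold, with a log2-fold change of 1.40 ± 0.10 (SE, limma adjusted p = 9.7e-07), and 0.495% of all probe sets rose further.

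The other *Taf12L* probe set was dim. It measured 19, 19, 17, 18 and 18 in wild-type and 22, 19, 18, 17 and 20 in mutants, and the genotypes overlapped. No detection calls were given, so whether this probe set stood above background could not be settled, and the calls for *Taf12L* rest on the brighter one. With the log2 values of both averaged, 1 tTAF gene instead of 2 was up-regulated, *Taf12L* no longer being called.

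*Taf12* (CG17358, 3R), the general histone-fold partner of TAF4, measured 233, 260, 221, 236 and 268 in wild-type and 285, 244, 267, 299 and 259 in mutants. The genotypes overlapped, and its log2-fold change was 0.15 ± 0.07 (SE, limma adjusted p = 0.13).

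*sa* (*spermatocyte arrest*, CG11308, 3L) encodes the TAF8-type tTAF. Its signal was 658, 860, 595, 754 and 651 in wild-type and 1308, 1194, 1139, 1202 and 1114 in mutants. Every mutant array lay above the wild-type arrays. The rise from 704 ± 104 to 1190 ± 74.9 (SD, n = 5 each) was 1.71-fold, with a log2-fold change of 0.77 ± 0.10 (SE, limma adjusted p = 9.6e-05). It missed the call by its size alone, and 2.4% of all probe sets rose further.

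*Taf8* (CG7128, X), the general partner of TAF10 in TFIID, measured 256, 318, 235, 322 and 299 in wild-type and 286, 286, 278, 309 and 303 in mutants. All mutant values fell inside the wild-type range, and the log2-fold change was 0.04 ± 0.09 (SE, limma adjusted p = 0.74).

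*nht* (*no hitter*, CG15259, 2L) encodes the TAF4-type tTAF and was the tTAF gene with no measurable change. It measured 426, 560, 379, 474 and 525 in wild-type and 510, 442, 443, 505 and 446 in mutants. The mutant values lay within the wild-type range. The means were 473 ± 73 and 469 ± 35 (SD, n = 5 each), with a log2-fold change of 0.00 ± 0.10 (SE, limma adjusted p = 1).

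*Taf4* (CG5444, 3L), a core subunit of general TFIID, was read by 2 probe sets. The brighter measured 208, 175, 199, 182 and 132 in wild-type and 163, 161, 158, 190 and 162 in mutants, with a log2-fold change of -0.09 ± 0.11 (SE, limma adjusted p = 0.56). The dimmer measured 150, 149, 132, 145 and 94 in wild-type and 149, 157, 161, 146 and 164 in mutants, with a log2-fold change of 0.23 ± 0.12 (SE, limma adjusted p = 0.15). The probe sets differed in sign, neither passed, and wild-type replicate 5 was the lowest wild-type array on both.

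**Figure D2:**
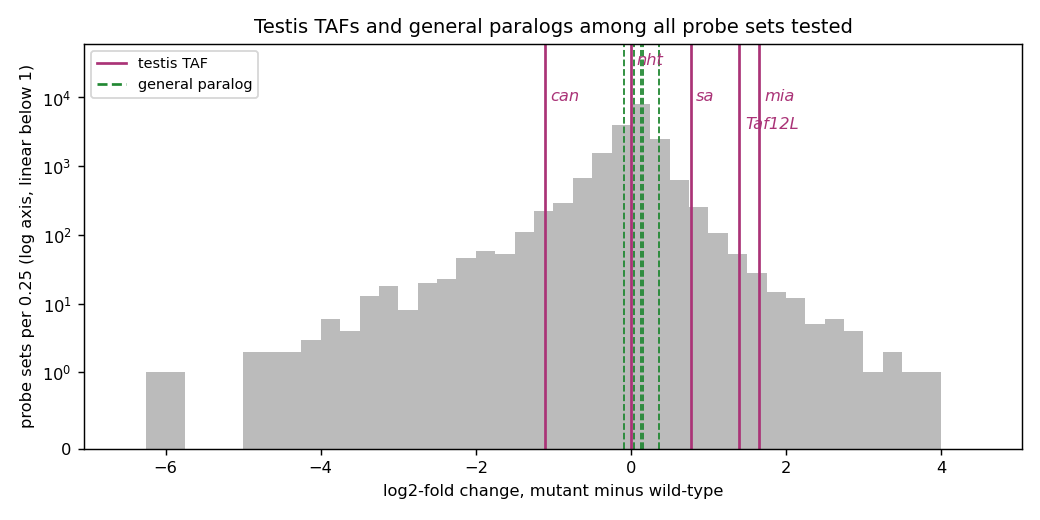
Histogram of the log2-fold change (mutant minus wild-type, x axis) of all 18769 probe sets tested, in steps of 0.25 (y axis, logarithmic above 1), with solid lines for the 5 testis TAF genes and dashed lines for their general paralogs. The general paralogs lie near the peak, from -0.09 for *Taf4* to 0.36 for *Taf6*, while *can* at -1.11, *Taf12L* at 1.40 and *mia* at 1.65 lie in the tails.

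Whether a tTAF gene changed differently from its own paralog was asked array by array, from the log2 ratio of the tTAF signal to the paralog signal, with the brightest probe set of each gene. The difference in this ratio between the genotypes equals the difference of the log2-fold changes, and any factor that scales a whole array cancels in it. An exact two-sided permutation test over the 5 mutant and 5 wild-type arrays cannot give less than p = 0.00794, and p was adjusted over the 5 pair comparisons by Benjamini-Hochberg.

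For *can*/*Taf5* the ratio fell by 1.24 (standard error 0.11, exact permutation p = 0.00794, adjusted 0.00992). Relative to the wild-type mean, the wild-type ratios ran from -0.21 to 0.33 and the mutant ratios from -1.38 to -1.04 on the log2 scale. For *mia*/*Taf6* the ratio rose by 1.28 (standard error 0.09), from a wild-type range of -0.22 to 0.15 to a mutant range of 1.06 to 1.47, with the same exact permutation p. The rise of *mia* was thus larger than that of *Taf6*, which moved in the same direction.

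For *sa*/*Taf8* the ratio rose by 0.73 (standard error 0.08), with wild-type ratios from -0.17 to 0.14 and mutant ratios from 0.58 to 0.90. For *Taf12L*/*Taf12* it rose by 1.25 (standard error 0.06), with wild-type ratios from -0.16 to 0.15 and mutant ratios from 1.17 to 1.38. Both gave the smallest p that the exact permutation test allows, 0.00794, and in these 4 pairs all 5 mutant arrays lay past all wild-type arrays. With the dimmer *Taf12L* probe set, a setting added after the values were seen, the *Taf12L*/*Taf12* difference was -0.08 (exact permutation p = 0.563), and with both probe sets averaged it was 0.59 (exact permutation p = 0.00794).

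For *nht*/*Taf4* no difference was detectable. It was 0.09 (standard error 0.20, exact permutation p = 0.706), and the wild-type ratios, from -0.47 to 0.59, enclosed the mutant ratios, from 0.01 to 0.24. The wild-type SD of this ratio was 0.44 and the mutant SD was 0.09, so that the difference lay well within the spread of the wild-type arrays. The sign of the difference turned to -0.23 with the dimmer *Taf4* probe set.

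**Figure D3:**
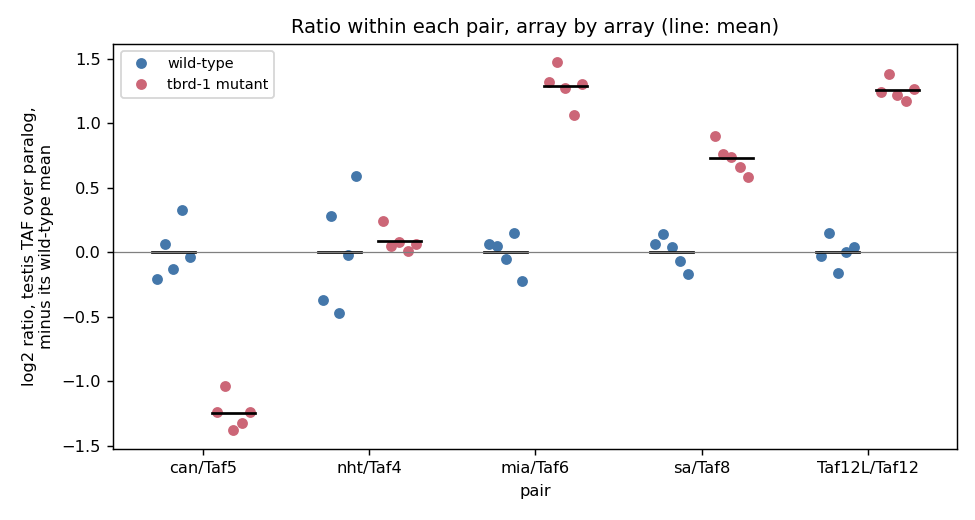
Log2 ratio of each testis TAF to its general paralog, array by array, minus the wild-type mean of that pair (y axis), with 5 wild-type and 5 mutant arrays per pair and a line at each group mean. Mutant and wild-type arrays are apart for *can*/*Taf5* (downward), *mia*/*Taf6*, *sa*/*Taf8* and *Taf12L*/*Taf12* (upward), and overlap for *nht*/*Taf4*.

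**Figure D4:**
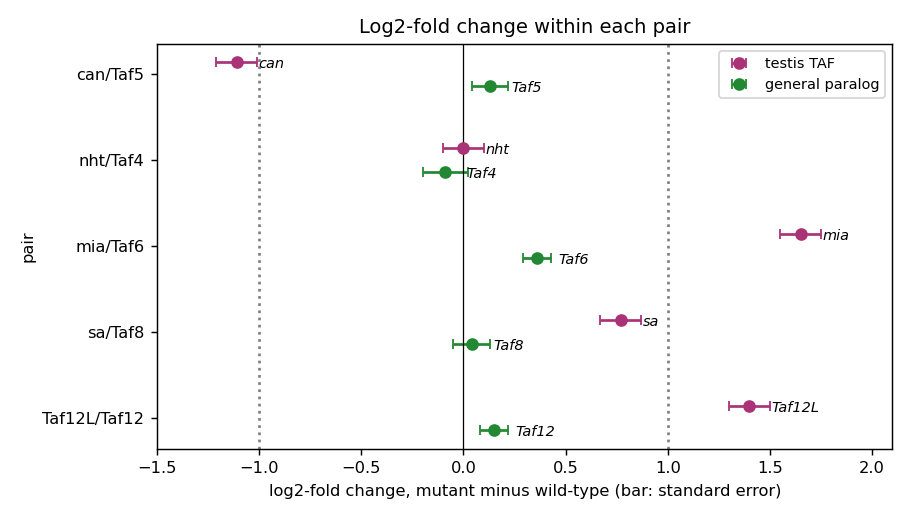
Log2-fold change (mutant minus wild-type, x axis) with its standard error for the testis TAF and the general paralog of each pair, from the fit to all probe sets. Dotted lines mark the 2-fold minimum, which *can*, *mia* and *Taf12L* pass, and *sa* at 0.77 and *Taf6* at 0.36 lie short of it.

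The tTAF genes were also set against each other in the same way, in 10 comparisons added after their values were seen. In 9 of 10 the log2-fold changes differed (exact permutation p = 0.00794, adjusted 0.00882 over the 10), the largest difference being -2.75 between *can* and *mia*. The 10 comparisons share 5 genes and are not independent. For 4 of these genes the genotypes were already known not to overlap, so the p-values are given as a description. *mia* and *Taf12L*, the 2 up-regulated genes, differed by 0.24 (standard error 0.12, exact permutation p = 0.0952), which did not pass. Without wild-type replicate 4 that difference was 0.31 and passed (exact permutation p = 0.0476), and without the 4 arrays bright in gut digestive enzyme genes it was 0.48 (exact permutation p = 0.133). *can* stood apart from *nht* by -1.11, and *sa* rose less than *Taf12L* by a difference of -0.63.

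*nht* and *Taf12L*, whose general counterparts TAF4 and TAF12 form a histone-fold pair, kept the steadiest ratio over the wild-type arrays. The log2 ratio of *Taf12L* to *nht* spanned 0.11 over the wild-type arrays and 0.12 over the mutant arrays, while between the genotypes it differed by 1.40 (standard error 0.03). The ratios within the other 9 combinations spanned 0.27 to 0.60 over the wild-type arrays and 0.12 to 0.53 over the mutant arrays. The span of 0.12 was that of *sa* and *Taf12L*, so over the mutant arrays *nht* and *Taf12L* were not alone in it. These spans are a description of 5 arrays each, looked at after the values were seen.

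Some arrays were low or high for most of the tTAF genes of their genotype. Wild-type replicate 3 was the lowest wild-type array for 5 of 5 tTAF genes and for 3 of 5 general paralogs, at -0.26 and -0.10 from the wild-type mean on the log2 scale. Wild-type replicate 2 was the highest for 3 of 5 tTAF genes, with a mean deviation of 0.21. Among mutants, replicate 1 was the highest for 4 of 5 tTAF genes, and replicate 3 was the lowest for 4 of 5 general paralogs.

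All 10 arrays carried signal of a neighbouring organ, since the mean log2 signal of 6 accessory gland genes, *SP* among them, was 13.67 to 13.79 over the wild-type arrays and 13.61 to 13.77 over the mutant arrays. None of the 6 was called, where 3.54% of all probe sets were, and *Acp76A* (-0.25, limma adjusted p = 0.0044) was past the adjusted p. In wild-type the 6 genes were brighter than 99.3% to 99.9% of all probe sets. It was not tested whether such high signal still followed the amount of RNA. Other signal was uneven between arrays. The mean log2 signal of 14 gut digestive enzyme genes was 7.62 to 8.92 on wild-type replicates 1, 3 and 4 and mutant replicate 3, and 4.77 to 5.69 on the other 6 arrays. That of *Ebp* and *EbpII*, genes of the ejaculatory bulb, was 12.05 to 13.41 on replicates 2 and 3 of wild-type and 2, 4 and 5 of the mutant, and 5.25 to 7.35 on the others. Wild-type replicate 3, the array low in tTAF signal, was in both sets. Without the gut-bright arrays the pair differences were -1.22 for *can*/*Taf5*, 1.37 for *mia*/*Taf6*, 0.74 for *sa*/*Taf8* and 1.16 for *Taf12L*/*Taf12*, close to those over all arrays, while *nht*/*Taf4* went to -0.34. With those arrays left out, the exact permutation test could not give less than p = 0.133.

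Markers of cell types within the testis were read beside these changes. The spermatocyte markers, 9 of 9 measured, had a median log2-fold change of 0.19, and their mean log2 signal ran from 8.39 to 8.77 over the wild-type arrays and from 8.67 to 8.95 over the mutant arrays. Of these, *kmg*, a zinc-finger gene of spermatocytes, was up-regulated from 204 ± 10.6 to 477 ± 55.3 (SD, n = 5 each), with a log2-fold change of 1.22 (limma adjusted p = 8.8e-07). The other 8 were not called, while *topi*, at 0.54, and *tbrd-2*, at 0.52, passed the adjusted p (0.00018 and 0.022 from limma) under 2-fold. *tomb* and *Rbp4*, at 0.19 each, and *sunz*, at 0.05, rose without passing it. *aly*, at -0.22, *comr*, at -0.12, and *tbrd-3*, at -0.11, fell without passing it. None of 4 spermatogonium and stem cell markers and none of 5 hub and cyst cell markers was called, with medians of -0.02 and -0.06, where 3.54% of all probe sets were called. *vas*, a germ cell gene, at 0.29, and *tj*, a cyst cell gene, at 0.37, passed the adjusted p (0.035 and 0.0019 from limma). Both were dim, with means of 23.6 and 28.8 for *vas* and 16.4 and 21.2 for *tj* in wild-type and mutants. None of the others passed. *bam*, at -0.37, *nanos*, at -0.19, *hh*, at -0.34, *zfh1*, at -0.31, and *eya*, at -0.06, fell. *bgcn*, at 0.14, and *upd1*, at 0.07, rose. The 3 muscle sheath markers measured had a median of -0.39, with *Mlc2* at -0.42 and *Tm2* at -0.39 past the adjusted p (0.0021 and 0.025 from limma) but under 2-fold. Their mean log2 signal was 8.69, 8.83 and 8.64 on the gut-bright wild-type replicates 1, 3 and 4, and 8.45 and 8.36 on replicates 2 and 5. In mutants it was 8.41 on the gut-bright replicate 3 and 7.96 to 8.23 on the others. Whether muscle of other organs gave part of this signal was not tested. The part of cell composition in the tTAF changes was not tested.

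TFIID has further subunits beside those with a tTAF counterpart among the 5 pairs. Of 10 such genes 8 were measured, and none was called, where 3.54% of all probe sets were. Past the adjusted p alone, 4 of 8 rose and none fell, where 21.6% of all probe sets rose and 14.7% fell by that rule, and their median log2-fold change was 0.29. *Taf7* rose from 46.6 ± 4.45 to 65.6 ± 6.84 (SD, n = 5 each), with a log2-fold change of 0.49 (limma adjusted p = 0.0011). *Taf9*, which encodes the histone-fold partner of TAF6, had a log2-fold change of 0.38 (limma adjusted p = 0.0025). *Taf10b*, of the TAF8 partner family, had 0.36 and *Taf13* had 0.34 (limma adjusted p = 0.011 and 0.013). *Tbp* itself, at 84.2 ± 5.59 and 84.6 ± 5.32 (SD, n = 5 each), was level.

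SAGA, a coactivator with histone acetyltransferase activity, holds its own relatives of TAF5 and TAF6. Of 6 SAGA genes 3 were measured and none was called, too few genes to set against the 3.54% of all probe sets that were called. *wda*, the TAF5-related gene, fell from 123 ± 11.4 to 97.8 ± 2.95 (SD, n = 5 each), with a log2-fold change of -0.33 (limma adjusted p = 0.003). *Saf6*, the TAF6-related gene, gave -0.06 and *Spt3* gave -0.07 (limma adjusted p = 0.46 each). Of the 2 relatives of TBP, *Trf2*, which serves promoters without a TATA box, measured 409, 402, 439, 443 and 343 in wild-type and 870, 1115, 830, 871 and 964 in mutants. It was up-regulated with a log2-fold change of 1.19 ± 0.10 (SE, limma adjusted p = 3.2e-06). *Trf* gave 0.02 (limma adjusted p = 0.83).

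Of 5 transcripts known to need the tTAFs 4 were measured, *fzo* of mitochondrial fusion in spermatids and the sperm genes *Mst87F*, *dj* and *janB*. *dj* was up-regulated, with a log2-fold change of 1.09 (limma adjusted p = 1.9e-06), and the other 3 were not called, where 1.18% of all probe sets were called higher and 2.36% lower. *janB* gave 0.24, *fzo* 0.27 and *Mst87F* 0.04 (limma adjusted p = 0.0023, 0.027 and 0.56), and the median over the 4 was 0.26. The wild-type and mutant means were 16700 and 17100 for *Mst87F* and 11000 and 13000 for *janB*. In wild-type they were brighter than 99.8% and 99.5% of all probe sets. Whether signal this high still followed the amount of RNA was not tested. Among 3 meiotic genes known not to need the tTAFs, *CycB*, the gene of cyclin B, fell from 114 ± 11.5 to 63.2 ± 3.49 (SD, n = 5 each), with no overlap of the genotypes and a log2-fold change of -0.84 (limma adjusted p = 6.8e-06), short of the fold minimum. *twe*, the meiotic Cdc25 gene, gave 0.11 and *bol*, an RNA-binding regulator of meiotic entry, gave 0.15, and neither passed.

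**Figure D5:**
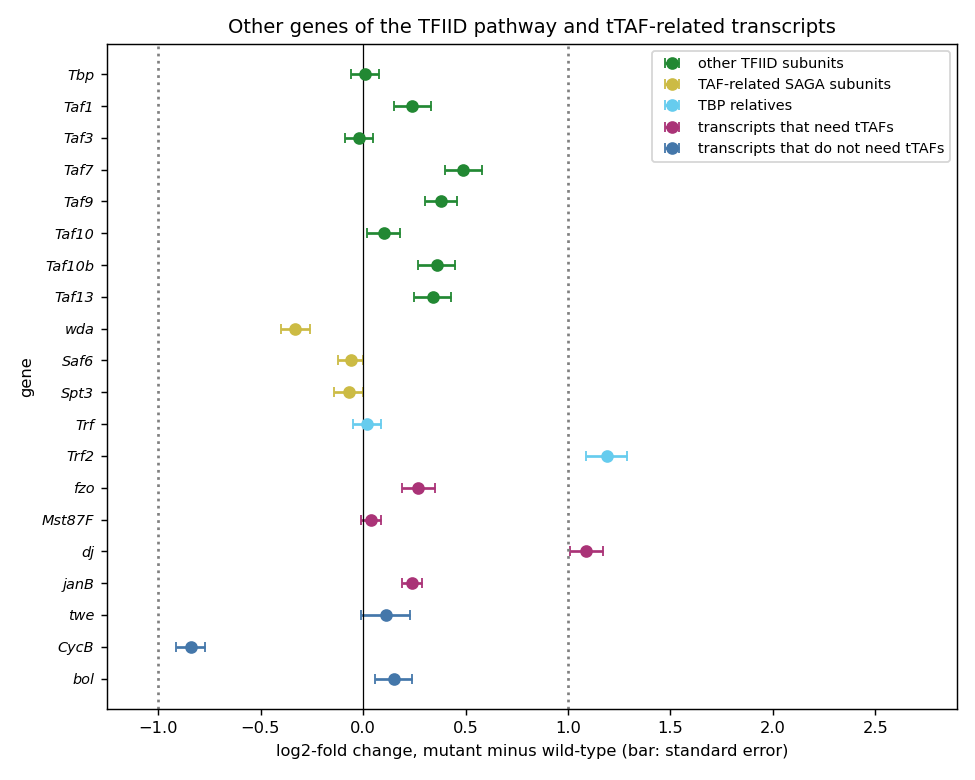
Log2-fold change (mutant minus wild-type, x axis) with its standard error for other TFIID subunits, TAF-related SAGA subunits, TBP relatives, and transcripts known to need or not to need the tTAFs, brightest probe set of each gene. Dotted lines mark the 2-fold minimum, which *Trf2* at 1.19 and *dj* at 1.09 pass, and *CycB* at -0.84 is the lowest of the 20 genes drawn.

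The genes whose log2 signal ran most like that of each tTAF gene over the 10 arrays were taken from 8644 probe sets with 1 gene and a mean log2 signal of at least 6. For *Taf12L* they were *CCDC53* (Pearson r = 0.9984) and *CG30323* (r = 0.9981), and for *mia* they were *CG1958* (r = 0.9976) and *CG14314* (r = 0.9972). For *sa* they were *CG12343* (r = 0.9940) and *Rab9Fb* (r = 0.9929), and for *can* they were *CG14154* (r = 0.9934) and *CG12589* (r = 0.9928). The 10 arrays share the difference between the genotypes, which sets most of these values. *nht*, with no such difference, ran most like *CG10581* (r = 0.9755) and *ATPsynepsilonL* (r = 0.9618). These are the highest of many correlations and are given as a description.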

How the data were processed

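The authors deposited 1 table of RMA signal intensity values, made with Affymetrix Expression Console (version not given in the sources used here), for 18952 probe sets and 10 arrays. The deposited intensities are whole numbers on a linear scale from 5 to 25679, without detection calls. Array medians were 68 to 77 in wild-type and 67 to 70 in mutants. The number of arrays limits the precision, and p-values set the difference between the genotypes against the spread between arrays, each of its own RNA pool. Any other difference between the fly stocks cannot be told apart from that of the allele.

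Log2 was taken without further normalization. After 183 control probe sets were left out, limma 3.58.1 (lmFit, eBayes) in R 4.3.3 compared the genotypes over the other 18769, with no other term. The platform annotation gave 1 gene to 13647 probe sets, several to 402 and none to 4720, and 13544 symbols were updated through RefSeq's Release 6 gene table, which also gave chromosome arms. The synonym *rye* belongs to 2 genes there and was matched to *Taf12L*. A gene with several probe sets is given by the brightest unless stated. Permutation tests used Python 3.11.15 with scipy 1.17.1, and plots matplotlib 3.10.9. The calls were tested on simulated data.

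All 10 member genes, *tbrd-1*, called genes of the lists and up to 4 others of a list, and the 2 genes most like each tTAF were named by rule. Members and lists were chosen with earlier results of these data known. Alternatives covered the test, scaling, filters, fold minimum, replicate block and arrays left out.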

Additional observations from a re-analysis of the deposited data

Results flagged for a closer look

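Among the 12 probe sets of the tTAF genes and their paralogs, 24 groups of 5 arrays were searched for an array far from the rest of its group, and 2 were found, where chance alone flags about 1 group in 20. Both were of *Taf4*. On the brighter *Taf4* probe set, mutant replicate 4 measured 190 while the other mutant arrays measured 158 to 163. On the dimmer one, wild-type replicate 5 measured 94 while the other wild-type arrays measured 132 to 150. None of the tTAF genes had such an array.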

How the results depend on the processing

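In every alternative that was run 1 tTAF gene was down-regulated and no general paralog was. The log2-fold changes ranged from -1.22 to -1.0 for *can*, from 1.56 to 1.75 for *mia*, from 1.20 to 1.51 for *Taf12L* and from 0.68 to 0.87 for *sa*. Without a fold minimum, the counts of down- and up-regulated probe sets were 2751 and 4052 in place of 443 and 221, with 1 general paralog, *Taf6*, among them, and with a 1.5-fold minimum 1003 and 799, and *sa* then passed under both. With the mean of all probe sets of a gene, 1 tTAF gene was up-regulated and the *Taf12L*/*Taf12* difference was 0.59. Centring each array on its median moved all log2-fold changes by 0.10, the calls to 368 down-regulated and 295 up-regulated, and *Taf4* to 0.01. With each array left out in turn, the counts were 397 to 556 and 215 to 232, the pair differences were -1.30 to -1.16 for *can*/*Taf5*, 1.23 to 1.34 for *mia*/*Taf6*, 0.68 to 0.76 for *sa*/*Taf8* and 1.21 to 1.29 for *Taf12L*/*Taf12* (adjusted p of at most 0.0198 in the exact permutation test), and *nht*/*Taf4* ran from -0.03 to 0.24 and *Taf8* from -0.03 to 0.09, both negative without wild-type replicate 3.

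The 4 pair differences past the test could not pass in 3 settings, since too few regroupings of the arrays remain there, and neither could the 9 differences between tTAF genes (adjusted p = 0.0694 with the block, 0.133 and 0.222 without the gut-bright and the *Ebp*-bright arrays). With the replicate number as a block they were -1.24, 1.28, 0.73 and 1.25 for *can*/*Taf5*, *mia*/*Taf6*, *sa*/*Taf8* and *Taf12L*/*Taf12*, at the smallest p an exact sign-flip test allows, 0.0625, and the block gave 499 lower and 221 higher calls over all probe sets. Same-numbered arrays deviated from their genotype means with r from -0.31 to 0.48, highest for their own number in 1 of 5, so the numbers were not taken as pairs. Without the gut-bright arrays they were -1.22, 1.37, 0.74 and 1.16 (exact permutation p = 0.133 each), with *nht*/*Taf4* at -0.34, *Taf4* at 0.15 and *Taf8* at -0.06. With the *Ebp*-bright arrays left out they were -1.33, 1.30, 0.88 and 1.22 (exact permutation p = 0.2 each), with *Taf8* at -0.05. *nht*/*Taf4* was -0.07 with the mean of all probe sets and -0.23 with the dimmer probe set, and *Taf12L*/*Taf12* was -0.08 with the dimmer probe set, a setting chosen after seeing the data. The cause of these changes of sign was not tested. Signal over background could not be judged for dim probe sets without detection calls.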
